A study of Homo sapiens with 12 samples.

Results

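The genes described here are the EGF receptor EGFR, 5 of the ligands that bind it (EREG, AREG, HBEGF, TGFA and BTC) and its inhibitor ERRFI1, 7 of the 17085 genes in the count table. The members were chosen by gene symbol, as a pathway set selected on earlier results of these same libraries, in which EREG was among the genes that differed most between treatments. Their own differences between groups are therefore given as a description, with standard errors and without p-values. Tests are given for other genes of the pathway and for genes that lie beside the ligands on the chromosome. The pathway lists were also chosen with earlier results of these data known. Some of their genes were named for a small p in the combination against DMSO. Their p-values and counts are therefore to be read as a description too.

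Messenger RNA was sequenced from 786-O cells, a human clear cell renal carcinoma line labelled as wild type, after 24 h with vehicle (DMSO), 5 µM everolimus, 1.5 µM SGI-1027 or 5 µM everolimus together with 1.5 µM SGI-1027. Each of the 4 groups held 3 libraries. Everolimus is a rapalog that blocks mTORC1, and SGI-1027 is an inhibitor of DNA methyltransferases that also makes these cells form vacuoles. The study asked how the drugs cooperate against renal cancer cells. The treatment field of the labels and the study's methods give 5 µM for everolimus alone, while the treatment protocol of the labels gives 10 µM. The line lacks a working VHL gene and represents 1 tumour.

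The libraries held 37046231 to 41516976 counts on genes, and scaling factors ran from 0.99 to 1.01. Renal carcinoma markers were present in every library, with the renal transcription factor PAX8 at 317 to 488 CPM (counts normalized to library size) and vimentin (VIM) at 5800 to 7460 CPM. The leukocyte, endothelial and hepatocyte genes PTPRC, CD3E, CDH5 and ALB had 0 to 5 counts, and PECAM1 had 2 to 12. Within groups, DMSO replicate 1 and SGI-1027 replicate 3 stood apart from their partners by a chi-square per gene of 10.1 to 16, against 3 to 5.41 for the other pairs, so the values below were also computed without each of them. Nothing in the labels says that replicates came from separate cultures, so p-values measure the spread between these libraries, which may be technical. Transcripts alone were measured, not protein, shed ligand or receptor phosphorylation. In bulk RNA a smaller share of cells with a transcript and less of it per cell cannot be told apart. The paper reports cell death with loss of membrane integrity in these cells when both drugs were given at these doses. It also reports cell cycle arrest with everolimus, and more arrest with both drugs. How far dying or arrested cells shaped the libraries was not tested.

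EGFR is a receptor tyrosine kinase. Its ligands are made as membrane-anchored precursors that metalloproteases of the ADAM family cut from the cell surface, and the bound receptor pairs with another EGFR or with ERBB2 and signals through the ERK kinase cascade and through PI3K and AKT. ERK in turn switches on genes that restrain it, among them the DUSP phosphatases and the Sprouty proteins. ERRFI1, also called MIG6, is a feedback inhibitor that binds the EGFR kinase domain. In clear cell renal carcinoma TGFA is known as a target of the hypoxia-inducible factors that accumulate when VHL is lost. EREG, AREG and BTC lie side by side on chromosome 4, together with the ligand gene EPGN.

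The sequences before the start sites of these 3 neighbouring ligand genes are shown because their transcripts did not move alike under the drugs, as described below. Each is the 250 bases before the start given by RefSeq on GRCh38.p14, at chr4:74364895-74365144 on the plus strand for EREG, chr4:74444886-74445135 on the plus strand for AREG and chr4:74794524-74794773 on the minus strand for BTC. Capitals mark matches to the motifs searched.
EREG: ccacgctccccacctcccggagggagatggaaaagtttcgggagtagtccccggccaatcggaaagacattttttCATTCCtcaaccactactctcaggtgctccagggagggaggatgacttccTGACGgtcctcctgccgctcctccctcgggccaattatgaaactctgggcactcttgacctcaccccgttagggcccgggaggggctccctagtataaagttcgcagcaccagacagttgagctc
AREG: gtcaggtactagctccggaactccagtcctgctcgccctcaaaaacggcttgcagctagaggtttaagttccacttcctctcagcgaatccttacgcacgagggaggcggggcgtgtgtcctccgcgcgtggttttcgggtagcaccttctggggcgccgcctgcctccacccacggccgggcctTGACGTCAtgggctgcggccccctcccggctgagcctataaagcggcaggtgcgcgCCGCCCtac
BTC: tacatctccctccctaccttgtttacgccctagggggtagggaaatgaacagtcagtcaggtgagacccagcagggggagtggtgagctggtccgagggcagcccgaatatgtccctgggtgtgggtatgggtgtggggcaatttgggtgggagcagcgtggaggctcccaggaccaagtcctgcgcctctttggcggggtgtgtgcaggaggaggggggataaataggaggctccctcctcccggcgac
In EREG the capitals are CATTCC, the reverse complement of the TEAD motif GGAATG, 175 bases before the start, and TGACG, the core of the cyclic AMP response element, 125 bases before the start. In AREG they are the full cyclic AMP response element TGACGTCA, which begins 65 bases before the start and holds the TGACG core on both strands, and CCGCCC, the GC box read on the other strand, 9 bases before it. The BTC stretch held none of the motifs.

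All 7 members had a promoter window in the RefSeq table, which runs from 250 bases before to 50 bases after each start, and EGFR and TGFA had 2 starts each. Of all 35114 windows of 300 bases, searched on both strands, 1.85% held TGACGTCA, 24.6% held TGACG, 14.0% held GGAATG, 45.0% held the GC box GGGCGG, 21.4% held the hypoxia core ACGTG, 7.71% held the AP-1 motif TGANTCA and 7.26% held the E-box CACGTG. Every match to TGACGTCA is also counted for TGACG, and every CACGTG also for ACGTG. The AREG window was the only window of the 7 genes with TGACGTCA. The EREG window held ACGTG 39 bases after the start, and no other window of the 7 genes held it, including both TGFA windows. The second EGFR start had AP-1 motifs 232 and 136 bases before it and a TEAD motif 114 bases before it. GC boxes were found in the windows of EGFR, AREG, HBEGF, TGFA, BTC and ERRFI1, with 5 in HBEGF, and none was found in EREG. A match describes letters in the window and not a bound site.

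Apart from the second EGFR start (42% G or C, observed over expected CpG ratio 0.0758), EREG and BTC had the lowest CpG ratios of the members. The EREG window was 57.7% G or C with a ratio of 0.486, and the BTC window was 63.0% with a ratio of 0.416. Over all windows the medians were 58.7% and 0.579. The windows of HBEGF (75.0%, ratio 0.902), ERRFI1 (74.7%, ratio 1.13), AREG (66.3%, ratio 0.824) and the upstream EGFR start (75.3%, ratio 0.893) were richer in CpG. DNA methylation was not measured.

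The receptor transcript was higher under each drug and higher still under both. EGFR stood at 395, 431 and 426 CPM in the DMSO libraries, at 481, 477 and 478 under everolimus, at 580, 566 and 603 under SGI-1027 and at 643, 657 and 676 in the combination group. No library of any group overlapped another group, and the order was DMSO, everolimus, SGI-1027, combination. The log2 fold change against DMSO was 0.20 (SE 0.04) with everolimus, 0.48 (SE 0.04) with SGI-1027 and 0.66 (SE 0.04) with both. Without DMSO replicate 1, the lowest DMSO library, these were 0.16, 0.44 and 0.62. The 3 comparisons share their DMSO libraries.

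EREG encodes epiregulin, a ligand of EGFR and ERBB4, and its transcript moved the opposite way. It was present at 247, 279 and 300 CPM in DMSO libraries, at 152, 157 and 148 under everolimus, at 113, 123 and 99.1 under SGI-1027 and at 61.6, 64.2 and 67.7 in the combination group. The groups again did not overlap and stood in the reverse order of EGFR. On the log2 scale EREG was at −0.85 (SE 0.07) with everolimus, −1.30 (SE 0.07) with SGI-1027 and −2.09 (SE 0.07) with both, relative to DMSO. The combination group was below everolimus alone by −1.24 and below SGI-1027 alone by −0.79. The values without DMSO replicate 1 were −0.93, −1.37 and −2.16, and the SGI-1027 value without SGI-1027 replicate 3 was −1.22.

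AREG, the gene beside EREG, encodes amphiregulin and was about as far below DMSO, from a much smaller number of counts. It had 5.42, 3.55 and 5.55 CPM with DMSO, 2.27, 3 and 2.93 with everolimus, 2.14, 2.65 and 2.72 with SGI-1027 and 1.15, 1.76 and 1.29 with both drugs. The DMSO libraries lay above all treated libraries and the combination libraries below all others, while the single-drug groups overlapped. The log2 differences from DMSO were −0.82 (SE 0.19), −0.95 (SE 0.19) and −1.78 (SE 0.21) with everolimus, SGI-1027 and both. These rest on 44 to 212 counts per library. Older human assemblies carry a near-identical copy of AREG, and the annotation used for counting is not given in the sources used here. The count table held no separate entry for that copy (AREGB). How reads shared with it were counted is not known, and the AREG level is uncertain to that extent.

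BTC, the next ligand gene on the chromosome, encodes betacellulin, and it was higher where EREG and AREG were lower. Its libraries were at 0.859, 1.26 and 1.41 CPM with DMSO, 1.86, 1.95 and 2.43 with everolimus, 2.87, 2.22 and 2.80 with SGI-1027 and 2.21, 3.09 and 2.29 with both. All treated libraries lay above all DMSO libraries and the treated groups overlapped one another. Against DMSO the log2 fold changes were 0.82 (SE 0.22), 1.15 (SE 0.22) and 1.10 (SE 0.22). Counts were low, 32 to 123 per library, and leaving out single libraries moved the combination value between 0.92 and 1.25.

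HBEGF encodes heparin-binding EGF-like growth factor. Its levels were 14.8, 12 and 12.9 CPM with DMSO, 10.0, 12.4 and 9.46 with everolimus, 11.2, 11.8 and 15.0 with SGI-1027 and 16.2, 16.9 and 17.3 with both. Only the combination group stood clear of the others, above all 9 of their libraries, and the DMSO, everolimus and SGI-1027 groups overlapped. The log2 fold change with both drugs was 0.34 (SE 0.11) against DMSO, 0.66 against everolimus and 0.41 against SGI-1027. With everolimus alone it was −0.31 (SE 0.11) and with SGI-1027 alone −0.06 (SE 0.11). The overlap of the SGI-1027 group with DMSO rested on SGI-1027 replicate 3, at 15.0 CPM. Leaving out single libraries moved the SGI-1027 value between −0.20 and 0.03.

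TGFA encodes TGF-alpha and was the steadiest of the ligands. Its libraries held 90.2, 91.2 and 92.5 CPM with DMSO, 80.6, 71.6 and 74.0 with everolimus, 92.9, 93.4 and 86.2 with SGI-1027 and 93.0, 98.8 and 98.4 with both. The everolimus libraries lay below all others. The combination libraries lay just above the DMSO libraries and overlapped those of SGI-1027. The log2 fold change was −0.28 (SE 0.05) with everolimus, −0.01 with SGI-1027 and 0.08 (SE 0.05) with both.

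ERRFI1, the feedback inhibitor, resembled TGFA in being lower with everolimus alone. It had 261, 256 and 275 CPM in DMSO libraries, 209, 216 and 211 under everolimus, 260, 242 and 255 under SGI-1027 and 240, 251 and 266 in the combination group. The everolimus group was separate and the other 3 groups overlapped. The log2 fold change was −0.31 (SE 0.04) with everolimus, −0.06 with SGI-1027 and −0.06 (SE 0.04) with both.

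**Figure D1:**
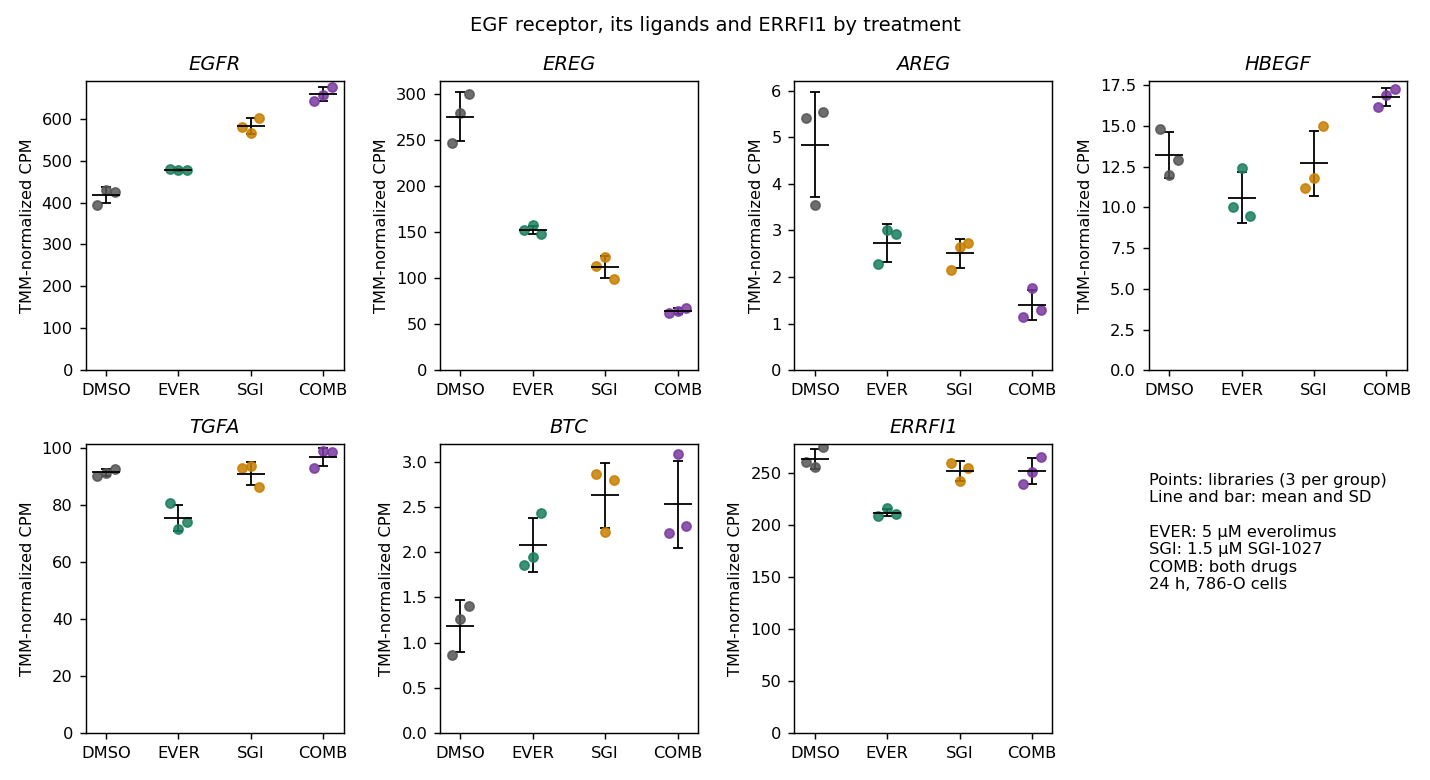
Normalized CPM (vertical axes from 0, 1 panel per gene) of the receptor, its ligands and ERRFI1 in each library by treatment; points are libraries (n = 3 per group), lines and bars are mean and SD. EGFR means run from 418 to 659 and EREG means from 275 to 64.5 between DMSO and combination, while TGFA and ERRFI1 are low in the everolimus group alone.

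Groups that did not overlap were common in this experiment and are not particular to these genes. Everolimus and DMSO libraries were separate for 6 of the 7 members (2 higher, 4 lower), with a background of 62.9% of the 12841 genes that passed the filter on low counts. The corresponding counts were 4 of 7 for SGI-1027 against DMSO (background 63.2%), 6 of 7 for the combination against DMSO (69.2%), 6 of 7 for the combination against everolimus (54.2%) and 4 of 7 for the combination against SGI-1027 (34.6%). All 7 members passed the filter. Since the set was put together with these contrasts known, nothing is read from the counts.

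Set against the sum of the single-drug changes, the members fell into 3 kinds. For EGFR, EREG and AREG the combination was near the sum on the log2 scale, with sums of 0.68, −2.15 and −1.76 against combination values of 0.66, −2.09 and −1.78. The combination minus the sum was −0.02 (SE 0.05) for EGFR, 0.06 (SE 0.10) for EREG and −0.02 (SE 0.28) for AREG. The place of AREG is uncertain, since leaving out single libraries gave −0.22 to 0.17. The EGFR value reached −0.09 under other processing settings. HBEGF, TGFA and ERRFI1 were above the sum, by 0.72 (SE 0.16), 0.37 (SE 0.07) and 0.31 (SE 0.06). Under other processing settings the TGFA and ERRFI1 values went down to 0.29 and 0.24. The lower mean seen with everolimus alone was not seen with both drugs for HBEGF and TGFA and was smaller for ERRFI1. BTC was below the sum of 1.97, by −0.87 (SE 0.30) or −0.24 on the log2(FPKM + 1) scale, which understates low genes, and its mean was 2.53 CPM with both drugs and 2.63 with SGI-1027.

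**Figure D2:**
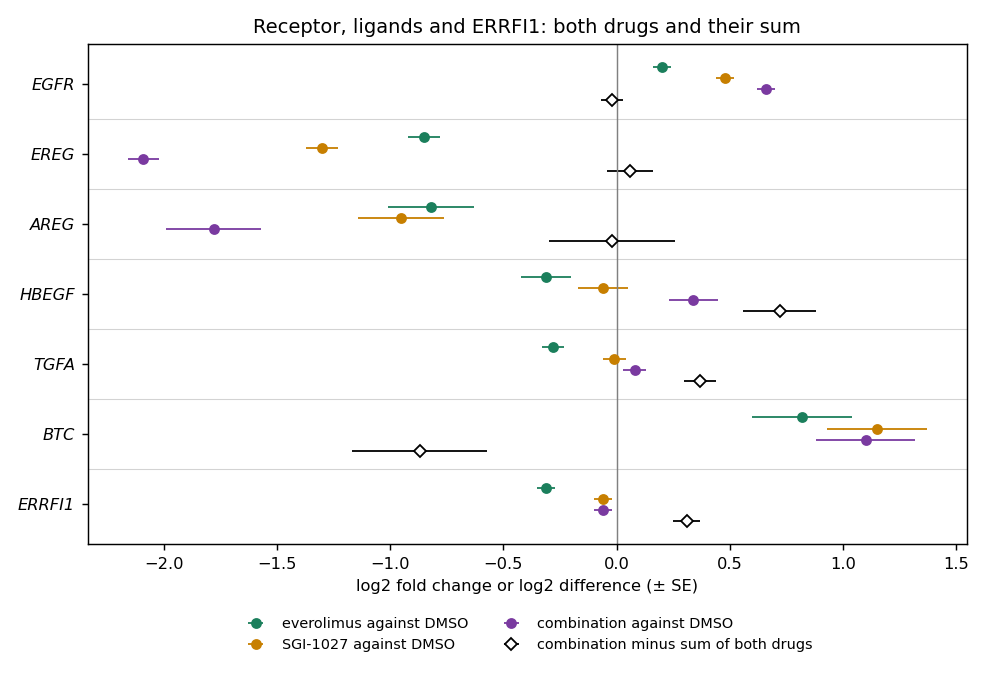
Log2 fold changes against DMSO (horizontal axis; bars are SE, 3 libraries per group) of the 7 genes for everolimus, SGI-1027 and the combination, with open diamonds for the combination minus the sum of both single-drug values. The diamonds of EGFR, EREG and AREG lie at −0.02, 0.06 and −0.02, those of HBEGF, TGFA and ERRFI1 above 0 and that of BTC at −0.87.

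The makeup of the ligand transcripts differed between the groups. Levels between genes are compared here on the authors' FPKM scale, which divides by gene length. In DMSO libraries EREG was the most abundant member at 59.4 ± 5.27 FPKM (SD, n = 3), followed by ERRFI1 at 38.6 ± 1.32 and EGFR at 38.2 ± 1.45, which did not differ beyond their spread. TGFA at 20.8 ± 0.133, HBEGF at 5.59 ± 0.646, AREG at 3.91 ± 0.915 and BTC at 0.274 ± 0.0646 came after them. In the combination group EGFR came first at 61.2 ± 1.53, then ERRFI1 at 37.4 ± 1.87, TGFA at 22.3 ± 0.758, EREG at 14.1 ± 0.666, HBEGF at 7.19 ± 0.236, AREG at 1.14 ± 0.263 and BTC at 0.596 ± 0.115.

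Summed over the 5 ligands, FPKM was 89.9 ± 5.07 with DMSO, 57.4 ± 1.54 with everolimus, 52.7 ± 2.77 with SGI-1027 and 45.3 ± 1.78 with both (SD, n = 3). EREG supplied 66.0% ± 2.59 of that sum with DMSO, 57.5% ± 0.562 with everolimus, 45.6% ± 2.71 with SGI-1027 and 31.1% ± 0.730 with both. TGFA took the leading place in the combination group, with 49.2% ± 0.373 of the sum against 23.1% ± 1.17 with DMSO. HBEGF made up 6.25% ± 0.980 with DMSO and 15.9% ± 0.207 with both drugs. The ratio of EGFR to EREG FPKM was 0.647 with DMSO, 1.34 with everolimus, 2.24 with SGI-1027 and 4.34 with both. A sum of transcripts is not a sum of ligand activity, and a share can change because another ligand does.

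**Figure D3:**
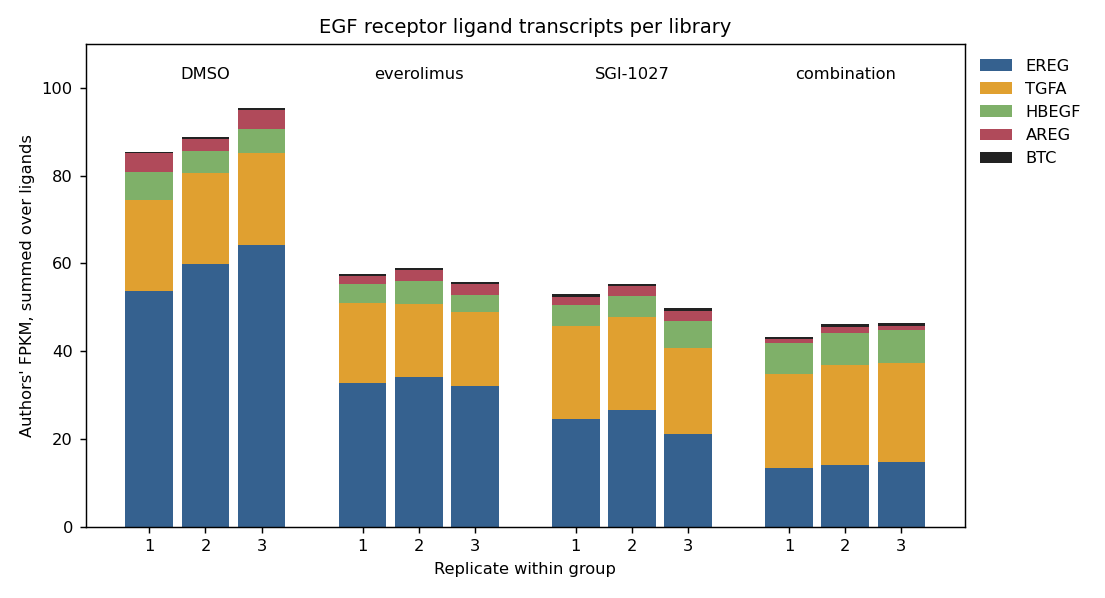
Authors' FPKM summed over 5 EGF receptor ligands (vertical axis from 0) in each of the 12 libraries, stacked by ligand and grouped by treatment. The EREG segment shrinks from a mean of 59.4 to 14.1 FPKM between DMSO and combination, while the TGFA segment stays between group means of 17.2 and 22.3.

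The genes that flank the ligand cluster were examined for whether the neighbourhood as a whole moved. In the order of the RefSeq table the cluster runs CXCL2, MTHFD2L, EPGN, EREG, AREG, BTC, PARM1 and RCHY1. EPGN, the fourth ligand gene of the cluster, had 0 to 4 counts per library and PARM1 had 1 to 7, so neither was tested. CXCL2, a neutrophil chemokine, was at 15.6 ± 1.22 CPM with DMSO and fell with SGI-1027 (log2 fold change −0.39, SE 0.08, adjusted p = 0.00054, edgeR) and with both drugs (−0.33, SE 0.08, adjusted p = 0.00179), but was at −0.01 with everolimus (adjusted p = 0.923). MTHFD2L, a mitochondrial folate enzyme, did not pass in any comparison, with −0.24 (SE 0.13, adjusted p = 0.111) in the combination group. RCHY1, a ubiquitin ligase, was higher with both drugs (0.21, SE 0.09, adjusted p = 0.0356), a call that was lost without combination replicate 1, combination replicate 3 or DMSO replicate 1 (adjusted p = 0.0867, 0.0718 and 0.198). Against everolimus alone the combination was higher for RCHY1 (0.28, SE 0.09, adjusted p = 0.0133, edgeR), a call lost without everolimus replicate 2 (adjusted p = 0.0504). In the same comparison CXCL2 was lower (−0.32, SE 0.08, adjusted p = 0.00465). The differences of these neighbours were smaller in size than those of EREG and AREG in the same comparisons.

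Other receptors of the family were next examined. Of the 3 other ERBB receptor genes only ERBB2, the usual partner of EGFR, passed the filter, while ERBB3 had 1 to 11 counts and ERBB4 had 0 to 1. ERBB2 was at 84.4 ± 3.12 CPM with DMSO and rose in each treated group, by 0.23, 0.28 and 0.21 on the log2 scale with everolimus, SGI-1027 and both (each SE 0.05, largest adjusted p = 0.000979, edgeR). The combination group did not pass against either drug alone (−0.03 against everolimus, adjusted p = 0.692, and −0.07 against SGI-1027, adjusted p = 0.337). EGFR, by contrast, was higher in the combination group than in either.

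Of the 6 other EGF-family ligand genes, 3 passed the filter and 3 (EPGN, NRG3 and NRG4) had 0 to 4 counts. EGF, the founding ligand, was at 4.40 ± 0.393 CPM with DMSO and 2.53 ± 0.291 with both drugs (log2 fold change −0.80, SE 0.16, adjusted p = 0.000215), and was at 0.03 with everolimus (adjusted p = 0.868). It also fell with SGI-1027 alone (−0.47, SE 0.15, adjusted p = 0.0121, edgeR). That call was lost without DMSO replicate 3 or SGI-1027 replicate 1 (adjusted p = 0.0581 and 0.0772). The combination did not pass against SGI-1027 for EGF (−0.32, adjusted p = 0.182). NRG1, a neuregulin that binds ERBB3 and ERBB4, rose with everolimus (0.19, SE 0.07, adjusted p = 0.0209) and fell with both (−0.48, SE 0.07, adjusted p = 4.61e-06). The NRG1 call with everolimus was lost without DMSO replicate 2 or 3 or everolimus replicate 2 or 3 (adjusted p from 0.0586 to 0.115). NRG2 was lower with everolimus (−0.88, SE 0.21, adjusted p = 0.00139) and at 0.14 with both (adjusted p = 0.523).

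Genes of ligand release were mostly higher. With both drugs 8 of the 11 tested rose and 1 (RHBDL2) fell at an adjusted p under 0.05, where 32.8% of all tested genes rose and 33.4% fell. The list's median was 0.23, and that of all tested genes 0.01. Without DMSO replicate 1 the number that fell was 2. ADAM12, a membrane metalloprotease, rose from 77.3 ± 2.82 to 163 ± 1.73 CPM (1.08, SE 0.04, adjusted p = 6.06e-14). RHBDF1, the inactive rhomboid that helps ADAM17 mature, rose from 27.7 ± 2.92 to 61.5 ± 1.95 CPM (1.15, SE 0.07, adjusted p = 4.42e-11). ADAM17, the main sheddase of AREG, EREG, HBEGF and TGFA, rose by 0.29 (SE 0.05, adjusted p = 3.98e-05). ADAM10, which sheds EGF and BTC, rose with either drug alone (0.22 and 0.18, adjusted p = 0.00103 and 0.00468) and was at −0.07 with both (adjusted p = 0.225). The inhibitor TIMP3 had 0 to 8 counts and was not tested.

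The single drugs gave similar counts in ligand release. With everolimus 7 of 11 rose, where 27.2% of all tested genes rose, and with SGI-1027 8 of 11 rose, where 32% did. ADAM12 was at 0.75 with everolimus and 0.99 with SGI-1027. For ADAM12 the combination did not pass against SGI-1027 alone (0.09, adjusted p = 0.0962, edgeR). The balance of the all-gene calls depended on scaling, since 48.2% of the everolimus calls were higher with TMM factors and 60.7% with upper-quartile factors.

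Genes of receptor turnover moved in both directions. Of the 20 tested, 7 rose and 5 fell with both drugs, near or below the 32.8% and 33.4% of all tested genes, with a median of 0.05. CBLB, a ubiquitin ligase that marks active receptors for degradation, rose from 10.9 ± 0.387 to 20.1 ± 0.494 CPM (0.88, SE 0.09, adjusted p = 5.46e-08), while its relative CBL fell (−0.24, SE 0.05, adjusted p = 0.000576). The receptor phosphatase PTPRJ rose by 0.30 (SE 0.04, adjusted p = 1.09e-06). PTPN1, another phosphatase that acts on EGFR, was lower by −0.37 (SE 0.06, adjusted p = 1.11e-05), as was the endocytic adaptor EPN1 (−0.37, SE 0.06, adjusted p = 5.76e-05). LRIG1, a membrane protein that promotes EGFR degradation, fell with everolimus (−0.42, SE 0.07, adjusted p = 3.08e-05) and was at 0.04 with both (adjusted p = 0.593). CBLB was already at 1.03 with everolimus alone and 1.09 with SGI-1027 alone, and CBL at −0.29 and −0.23. With everolimus 3 rose and 7 fell, where 27.2% and 29.2% of all tested genes did. With SGI-1027 5 rose and 7 fell, where 32% and 30.6% did. With upper-quartile factors 6 and 8 rose with everolimus and with SGI-1027, 3 fell with everolimus, and 5 rose with everolimus without DMSO replicate 2.

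Genes that relay the signal from the receptor were more often lower. Of the 25 tested, 14 fell and 5 rose with both drugs, where 33.4% of all tested genes fell and 32.8% rose, and the median was −0.27. The adaptor GRB2 fell from 124 ± 5.31 to 85.7 ± 1.69 CPM (−0.54, SE 0.04, adjusted p = 2.84e-09). PIK3R1, the regulatory subunit of PI3K (−0.56, SE 0.05, adjusted p = 3.09e-08), and the phosphatase SHP2 encoded by PTPN11 (−0.49, SE 0.05, adjusted p = 4.43e-08) fell as well. The 5 that rose were SOS1, GAB1, PLCG1, BRAF and SRC, and that count was 3 without combination replicate 2, without combination replicate 3 or without DMSO replicate 1. With everolimus 13 fell and 4 rose (backgrounds 29.2% and 27.2%), and with SGI-1027 15 fell and 5 rose (30.6% and 32%), or 9 rose with upper-quartile factors. By the DEG cut-off none of the 25 was called in any of these 3 comparisons.

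Most genes of the ERK output and feedback list were higher in the combination group, in which EREG was lowest. Immediate early genes, which growth factors also induce, moved in both directions and are given below, with EGR1 and FOS lower. Of 19 genes in the ERK output and feedback list, 15 rose and 3 fell against DMSO at an adjusted p under 0.05. Of all tested genes 32.8% rose and 33.4% fell. The list's median was 0.86, and that of all tested genes 0.01. By the cut-off used in the study for differentially expressed genes (DEGs, unadjusted p under 0.05 and a log2 fold change of at least 1 in size), 9 were upregulated and 1 downregulated, where 7.25% and 2.71% of all tested genes were. CCND1, which encodes cyclin D1, stood at 329 ± 7.14 CPM with DMSO and 661 ± 17.1 with both (1.01, SE 0.04, adjusted p = 5.43e-14). The ETS factor ETV5 rose from 17.6 ± 1.09 to 61.8 ± 3.22 CPM (1.81, SE 0.07, adjusted p = 3e-13) and ETV4 by 1.68 (SE 0.14, adjusted p = 4.76e-09). The ERK phosphatase DUSP6 rose from 5.48 ± 0.185 to 14.9 ± 1.14 CPM (1.45, SE 0.09, adjusted p = 1.36e-10), and DUSP4 by 2.58 (SE 0.18, adjusted p = 4.03e-10). The Sprouty genes SPRY2 (1.07, SE 0.10, adjusted p = 4.17e-08) and SPRY4 (2.04, SE 0.21, adjusted p = 1.14e-07) rose too, whereas SPRY1, EPHA4 and IER3 fell. SPRY1 was near the floor, at 0.68 ± 0.102 CPM with DMSO and 0.292 ± 0.104 with both (adjusted p = 0.0142, edgeR). Leaving out single libraries gave 2 to 3 genes that fell.

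The single drugs were read in the same 19 genes. With everolimus 3 rose and 7 fell, where 27.2% and 29.2% of all tested genes did, and the median was −0.16. With SGI-1027 13 rose and 3 fell, where 32% and 30.6% did, and the median was 0.35. The count of 3 with everolimus was 1 without DMSO replicate 2, and the 3 that fell with SGI-1027 were 1 without DMSO replicate 2 or SGI-1027 replicate 2 and 5 without SGI-1027 replicate 3. CCND1 fell with everolimus (−0.41, SE 0.04, adjusted p = 2.45e-08) and rose with SGI-1027 (0.50, SE 0.04, adjusted p = 1.04e-09). FOSL1, the AP-1 subunit FRA-1, fell with everolimus (−0.68, SE 0.10, adjusted p = 1.89e-05), was at −0.08 with SGI-1027 (adjusted p = 0.496) and rose with both (0.54, SE 0.10, adjusted p = 0.000116).

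Against everolimus alone, 16 of the 19 were higher in the combination group and 2 lower, where 20.1% and 19.2% of all tested genes were called. Against SGI-1027 alone 13 were higher and 1 lower, with backgrounds of 9.4% and 10.2%. The combination minus the sum of both drugs was above 0 for 12 genes and below 0 for 1 (EPHA4), where 23.6% and 22.1% of all tested genes were, and the list's median was 0.58. The 1 below 0 was lost when any of 5 single libraries was left out, which were combination replicate 1 or 2, DMSO replicate 3, everolimus replicate 1 and SGI-1027 replicate 1.

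Immediate early genes, which growth factors induce within minutes, moved in both directions. With both drugs 6 of 14 rose, a share near the 32.8% of all tested genes, and 2 fell, where 33.4% of all did, and the median was 0.20. The 2 that fell were EGR1, from 41.5 ± 7.63 to 10.1 ± 0.519 CPM (−2.03, SE 0.15, adjusted p = 1.13e-09), and FOS (−1.84, SE 0.24, adjusted p = 2.12e-06). FOSB rose by 2.69 (SE 0.27, adjusted p = 7.38e-08) from a low 0.471 ± 0.0677 CPM, and CCN1 and MYC rose by 0.62 and 0.61 (SE 0.04 and 0.06, adjusted p = 1.59e-10 and 1.1e-07). EGR1 was at 0.12 with everolimus (adjusted p = 0.467) and fell with SGI-1027 (−0.96, SE 0.14, adjusted p = 8.92e-06). With everolimus 5 of the 14 rose and 3 fell, or 1 without everolimus replicate 3 (backgrounds 27.2% and 29.2%), and with SGI-1027 8 rose and 3 fell (32% and 30.6%).

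**Figure D4:**
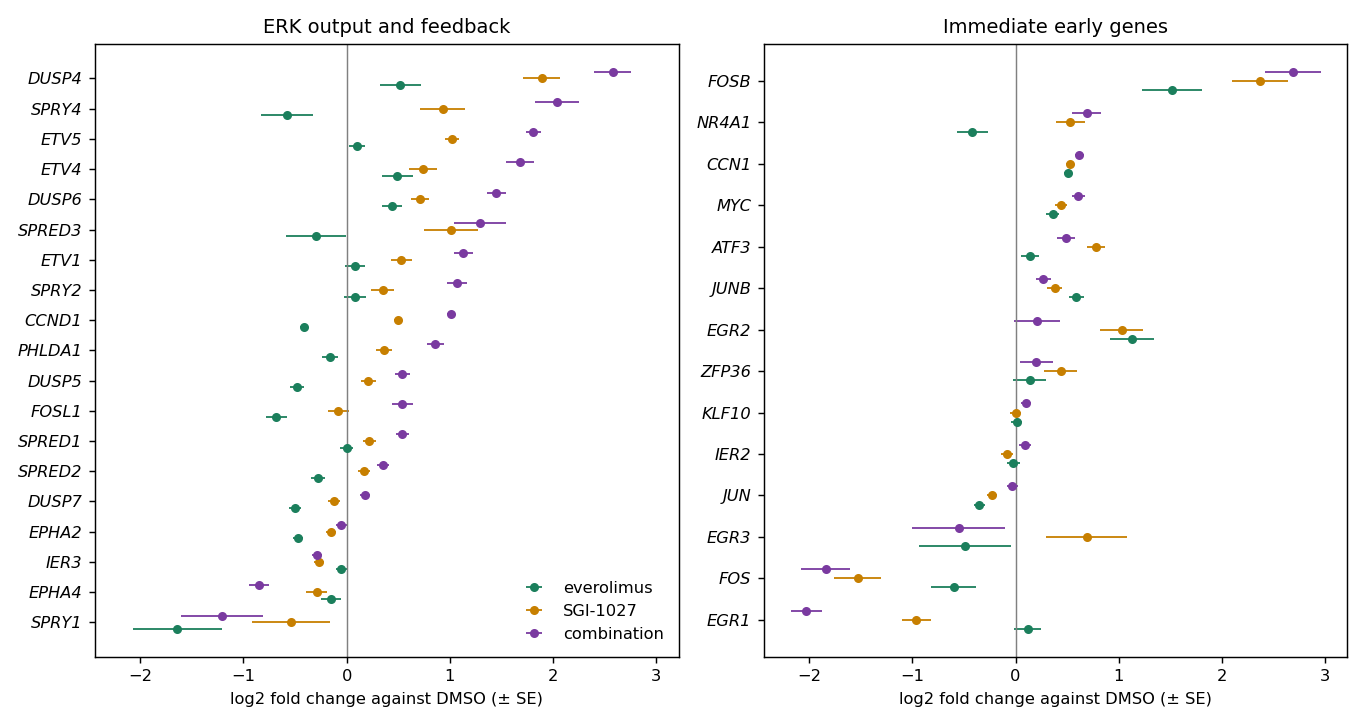
Log2 fold changes against DMSO (horizontal axes; bars are SE, 3 libraries per group) of the 19 ERK output and feedback genes (left) and the 14 immediate early genes (right), ordered by the combination value. In the left panel the combination points lie furthest right for most genes, with DUSP4 at 2.58, and in the right panel EGR1 at −2.03 and FOSB at 2.69 mark the ends.

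The genes whose pattern over the 12 libraries was most like that of each member were sought by the root mean square difference in log2 CPM, centred on DMSO, among 11465 genes. They are given as a description, since many genes share so broad a shape. PEG10, an imprinted retrotransposon-derived gene, was nearest to EREG at a difference of 0.12, with log2 fold changes of −0.87, −1.38 and −2.23 for everolimus, SGI-1027 and both. CA2, which encodes a carbonic anhydrase, and the lipid transporter ABCA12 followed at 0.235 and 0.241. WASHC4, RASAL2 and SNX33 were nearest to EGFR at 0.05 to 0.059, with combination values of 0.61, 0.72 and 0.65. FGFR4 (0.277), SLC26A1 (0.294) and HSPA4L (0.298) were nearest to AREG.

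Among the other members, THBD, TAP2 and ABHD11 lay nearest to HBEGF at 0.135 to 0.141, and SOWAHC, SRFBP1 and TRMT2A nearest to TGFA at 0.055 to 0.065. DNAH1 (0.175), ADAM12 (0.21) and ARSD (0.215) were nearest to BTC. RUSC1, OSMR and OTUD4 were nearest to ERRFI1 at 0.052 to 0.061. The low counts of AREG and BTC set a floor to how near any gene can come to them.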

How the data were processed

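The deposited tables held raw counts and FPKM per gene for 12 libraries, both made by the authors. The authors' FPKM are divided by gene length and library depth. The aligner and counter are not given in the sources used here. The submitters' processing notes name GRCm38 and mm10, which are mouse builds, whereas cells and gene symbols are human, so no file coordinates were used. The labels and the paper name different extraction and library kits, and whether counting used strand is not stated.

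Genes were filtered with filterByExpr (12841 of 17085 kept), scaled by TMM and fitted over all 4 groups with edgeR 4.0.16 (R 4.3.3) by its quasi-likelihood F test. Adjusted p-values are Benjamini-Hochberg over the 12841 genes, with a threshold of 0.05. The interaction is the combination minus the sum of both single-drug log2 fold changes. Fold changes use a prior count of 0.125. Each SE of a log2 fold change is its size divided by the square root of F from that test. An SE therefore carries the same information as the test statistic. FPKM was used for levels between genes and, as log2(FPKM + 1) or log2(FPKM + 0.1), in limma 3.58.1. DESeq2 1.42.0, upper-quartile factors, other filters, a replicate block and leaving out each library were alternatives. The procedure was run on simulated counts drawn with the same spread for every gene and without outlying libraries. That run therefore does not give the error rates of the calls reported here. Libraries held 37046231 to 41516976 counts, and counts of 32 to 212 make AREG and BTC the least precise members.

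The members and lists were chosen with earlier results of these data known. Named genes are the 7 members, the 4 genes of each list with the smallest p in combination against DMSO, a set list of pathway genes, the chromosome neighbours and the 3 genes most like each member. A further gene that met the rule and a further marker are not reported here. Genes named as the members of a small count were added after their values were seen. The likeness search kept genes averaging 50 counts or more and used a prior count of 2. Promoter windows came from RefSeq (GRCh38.p14). Receptor turnover gene CBLC had no row and was not analysed here.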

Additional observations from a re-analysis of the deposited data

Results flagged for a closer look

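For 21 named genes of the pathway lists the effect of either drug depended on whether the other was present, by the edgeR test of the combination minus the sum of both drugs (log2 scale, n = 3 per group, adjusted p from 2.72e-10 for CCND1 to 0.0366 for PTPRJ). In the ERK output list the difference was 0.92 for CCND1, 0.69 for ETV5, 0.65 for SPRY2, 1.69 for SPRY4 and 1.30 for FOSL1. Among immediate early genes it was −0.42 for CCN1, −1.19 for EGR1 and −1.20 for FOSB. Among receptors and ligands it was −0.31 for ERBB2, −0.61 for NRG1 and 1.46 for NRG2. Among genes of ligand release it was −0.66 for ADAM12 and −0.48 for ADAM10. In receptor turnover it was −1.23 for CBLB, −0.14 for PTPRJ, 0.30 for PTPN1, 0.28 for CBL and 0.66 for LRIG1, and in signal relay 0.32 for GRB2, 0.24 for PIK3R1 and 0.34 for PTPN11. The PTPRJ call was lost without any of 8 single libraries (adjusted p from 0.0506 to 0.103), with a replicate block (0.0524), without the filter on low counts (0.103) and on FPKM, that of PIK3R1 with upper-quartile factors (log2 difference 0.17) and that of FOSB on log2(FPKM + 1) (−0.13). The other named pathway genes that were tested did not pass, namely EGF, ADAM15, ADAM17, RHBDF1, EPN1, DUSP4, DUSP6, ETV4, FOS and MYC. Of all tested genes 23.6% lay above 0 and 22.1% below 0 in this test. Many of the named genes were picked for a small p in the combination against DMSO, which shares libraries with this test. Nothing is therefore read from their count against that share.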

How the results depend on the processing

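Of 798 recomputed log2 values of the members 23 changed sign, all from a reported size of at most 0.06. Upper-quartile factors put the median gene at 0.06 to 0.08 in the comparisons against DMSO, where TMM factors put it at 0 to 0.02. In those of the combination against everolimus and SGI-1027 the median was −0.02 and 0, and 0 in both with TMM factors. Upper-quartile factors gave 0.27, 0.54 and 0.71 for EGFR with everolimus, SGI-1027 and both. For ERRFI1 they gave −0.24, −0.01 and −0.01 in the same order, and for TGFA −0.20 with everolimus. On log2(FPKM + 1), which shrinks low genes, AREG was −1.18 with both drugs, and BTC was 0.22, 0.34 and 0.32. The DEG cut-off, which asks for a larger change, gave for ERK output 9 higher and 1 lower with both drugs, 3 higher with SGI-1027, 0 higher with everolimus, 1 higher against SGI-1027 and 2 above the sum. With both drugs against DMSO it gave 1 higher and 2 lower for immediate early genes and 3 higher and 0 lower for ligand release. In that comparison it gave 0 in both directions for receptor turnover and for signal relay, where 7.25% of all tested genes were higher and 2.71% lower. For receptor turnover it gave 1 higher with everolimus and 1 higher with SGI-1027. Without the filter on low counts, ligand release had 2 lower and signal relay 3 higher with both drugs. Leaving out single libraries gave 1 to 3 higher ERK output genes with everolimus, 1 to 2 lower ligand release genes (2 without DMSO replicate 1) and 3 to 6 higher signal relay genes. Other causes were not tested. DESeq2 left all 42 member values within the replicate spread and 81 of 84 list counts within 1.5 times. Read for the named pathway genes and neighbours, a check added after seeing the data, 128 of 145 calls passed under every alternative and none of the 17 others changed sign. Motif shares in the 150 bases nearest the start ran from 1.37% to 35.0%. Replicate numbers did not pair the libraries: same-numbered libraries correlated from −0.176 to 0.0358 in their deviations, and 1 of 12 matched its own number best. With a replicate block EREG was −2.09 and EGFR 0.66 with both drugs, and 82 of 84 list counts stayed within 1.5 times.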
